A study of Mus musculus with 12 samples.

Results

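Primordial germ cells (PGC), the embryonic precursors of eggs and sperm, were compared with the somatic cells of the same organ in mouse ovaries at E13.5 (embryonic day). The comparison uses the 6 female libraries of a series of 12, chosen by their labelled sex and cell type, and all 12845 genes of the deposited tables. Pregnant females had been mated to males carrying the Oct4GFP reporter, which drives green fluorescent protein from Oct4 (Pou5f1) regulatory sequence, and the strain of every sample is given as Oct4GFPxICR. Gonads were dissociated and sorted by flow cytometry, giving 3 libraries of GFP-positive female germ cells and 3 libraries of GFP-negative female soma. The germ cells are therefore those with an active reporter, and the soma is every other cell of the dissected gonad, not a purified cell type. All 6 samples share the stage, strain and reporter cross, and how many embryos were pooled for a sample is not given in the labels. Nothing states that the replicates came from separate litters, so p-values measure only the spread between these samples, which may be technical.

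Synthetic spike-in RNA went into each sample by cell number, at 4 µL of a 1:10000 dilution per 10000 cells, and 8 to 13 ng of total RNA entered each library. Expression was deposited on a pair of log2 scales made from the same libraries. The cell number table is read here as a per cell scale, so that a gene can rise because the whole cell holds more RNA. The read depth table gives a gene's place within its own library. Whole reads could be recovered from the cell number table, and they are given here as CPM, counts per 1000000 reads of these genes, in the order of replicates 1, 2 and 3. The germ cell libraries held 22343991, 6454322 and 10459179 reads on these genes and the soma libraries 8997638, 6518166 and 7864982. Differences are log2 values, germ cells minus soma, with the standard error (SE) and a Benjamini-Hochberg adjusted p from limma over all genes, at a threshold of 0.05.

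At this stage germ cells of a fetal ovary leave mitosis and enter meiosis under retinoic acid and BMP signals from the soma. Stra8 is the gatekeeper of meiotic entry, and the products that follow build the chromosome axis, cut and repair DNA, and pair the homologous chromosomes. The soma around them holds supporting cells fated to become granulosa cells, which depend on Foxl2 and on Wnt4 and Rspo1 signalling, together with interstitial, endothelial and blood cells. Female soma keeps 1 X chromosome silent through the long RNA Xist, whereas female germ cells reactivate it around the time of entry into meiosis.

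The markers bore out the labels. Dazl (chr17:50279395-50293636, minus strand, mm10), an RNA-binding protein that licenses germ cells, was at 1835, 1736 and 1659 CPM in germ cells and at 40.5, 98.2 and 5.21 CPM in soma. Stra8 (chr6:34920163-34939344, plus strand) was at 626, 616 and 448 CPM in germ cells and at 10.1, 40.8 and 0.254 CPM in soma. In the opposite direction, Foxl2 (chr9:98955288-98958543, plus strand), a forkhead factor of supporting cells, was at 1.25, 4.34 and 0.956 CPM in germ cells and at 71.2, 63.7 and 51.5 CPM in soma. Wnt4 (chr4:137277489-137299726, plus strand) was at 6.8, 11.2 and 6.6 CPM in germ cells and at 187, 131 and 205 CPM in soma. The groups did not overlap for any of the 4 genes, but markers of each group had reads in the other. Most genes had groups that did not overlap. Per cell 78.6% of all genes were apart with germ cells higher and 12.2% with germ cells lower, and by read depth 39.1% and 42.7%. The summed level of 6 germ cell markers (Dazl, Ddx4, Pou5f1, Dppa3, Sycp3, Stra8) in soma was 2.38%, 5.81% and 0.287% of the germ cell mean. The sum of 8 ovarian soma markers in germ cells was 5.20%, 9.18% and 5.10% of the soma mean, with germ cell replicate 2 highest. That share depended on the markers taken. For 4 stroma markers it was 0.14%, 0.42% and 0.09%, and for 5 endothelium markers, Pecam1 among them, 53.6%, 55.8% and 93.5%. Whether such reads came from cells of the other gate was not tested, nor was their part in any single difference.

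**Figure D1:**
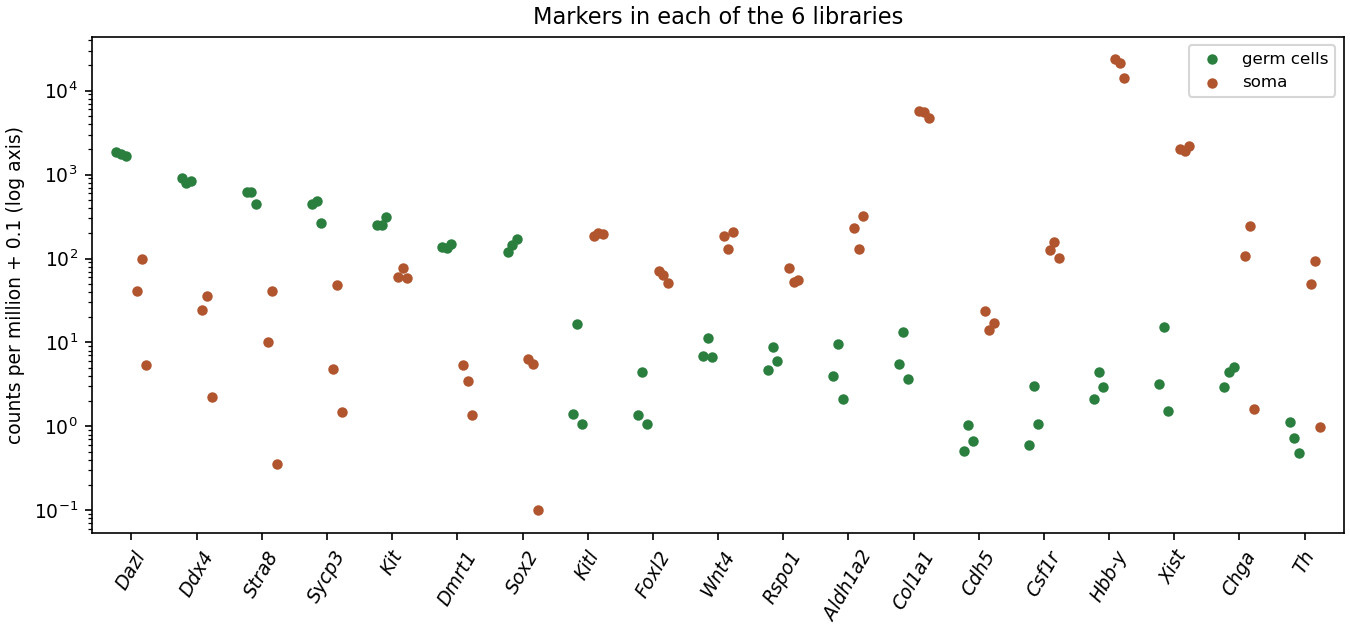
CPM plus 0.1, on a log axis, for 19 marker genes, with 1 point for each of the 3 germ cell and 3 soma libraries in the order of their replicate numbers. Germ cell genes are separated from soma at left, soma genes at right, and Chga and Th are the exceptions, high in soma replicates 1 and 2 and low in soma replicate 3.

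Per cell, most genes were higher in germ cells than in soma. The median gene of a library stood at 6.07, 5.82 and 5.92 in germ cells and at 3.67, 3.59 and 3.95 in soma, a shift of 2.2 ± 0.13 (SE) or 4.59-fold. The groups did not overlap, and the exact permutation test over libraries (two-sided) gave p = 0.1, the smallest that 3 against 3 allows. On the read depth scale the same medians were 8.60, 8.61 and 8.59 against 8.80, 8.81 and 8.80, a difference of -0.20. Gene by gene, 10095 genes were higher in germ cells per cell (78.6% of 12845) and 1570 lower (12.2%), with a median difference of 2.36. By read depth, 4838 were higher (37.7%) and 5344 lower (41.6%), with a median of -0.05. Centring each library on its median moved the per cell split to 5642 higher and 4644 lower, and the read depth split to 5853 higher and 4481 lower. The per cell values hold an offset of 0.5 reads that is worth more in some libraries than in others, so a gene with no read anywhere shows a difference of 1.86, and fitted per cell differences of genes near 0 reads in a group depend on that offset. Only 25 genes were under 10 reads in every library, and 3 of them were among those called higher per cell.

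**Figure D2:**
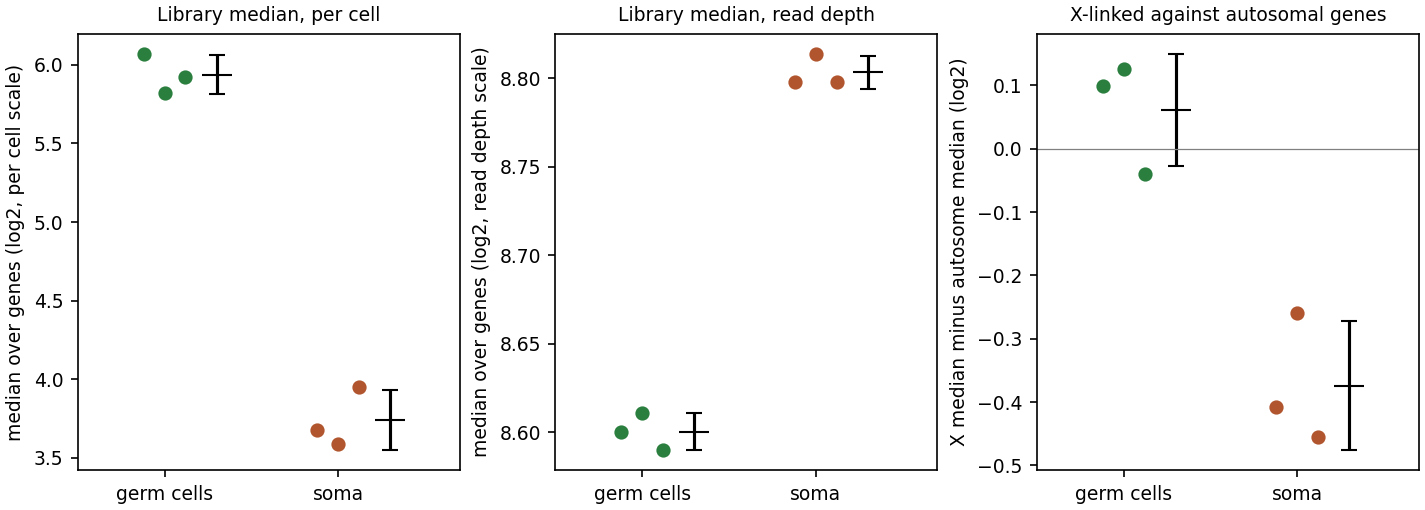
Left and middle, the median log2 value over all genes in each library on the per cell and read depth scales; right, the median of X-linked genes minus that of autosomal genes on the per cell scale. Points are the 3 libraries of a group, and the bar with whiskers is the mean ± SD; germ cells sit above soma at left and right and below soma in the middle.

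Setting the scales side by side sorted the genes into 6 classes, all from the same libraries, so that a shared call is not independent evidence. In 4838 genes the rise held on both scales, with medians of 3.51 per cell and 0.76 by read depth. Another 2619 genes rose per cell and were not called by read depth, near the general shift. In 2638 genes the signs were opposite, with medians of 1.51 per cell and -0.63 by read depth. The 1570 genes lower per cell were all lower by read depth too, at medians of -2.84 and -2.64, and their median level was 0.899 CPM in germ cells against 33.8 CPM in soma. A further 1136 genes fell by read depth and were not called per cell, and 44 were called on neither scale.

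The class with opposite signs held several genes often used as loading controls. Actb, the beta-actin gene, was at 576, 607 and 661 CPM in germ cells and at 1962, 1885 and 2225 CPM in soma. Its difference was 0.71 ± 0.23 per cell (limma adjusted p = 0.0073) and -1.37 ± 0.07 by read depth (adjusted p = 5.69e-07). The per cell call for Actb was lost without replicate 2 of each group (0.64, limma adjusted p = 0.0849). With soma replicate 3 as the only soma library its per cell difference was 0.34. The actin gene Actg1 (1.36 per cell, -0.86 by read depth), the poly(A)-binding protein gene Pabpc1 (1.62, -0.65) and Tpt1 (0.86, -1.26) also changed in opposite directions on the 2 scales. For these genes the choice of scale sets the direction of the change.

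**Figure D3:**
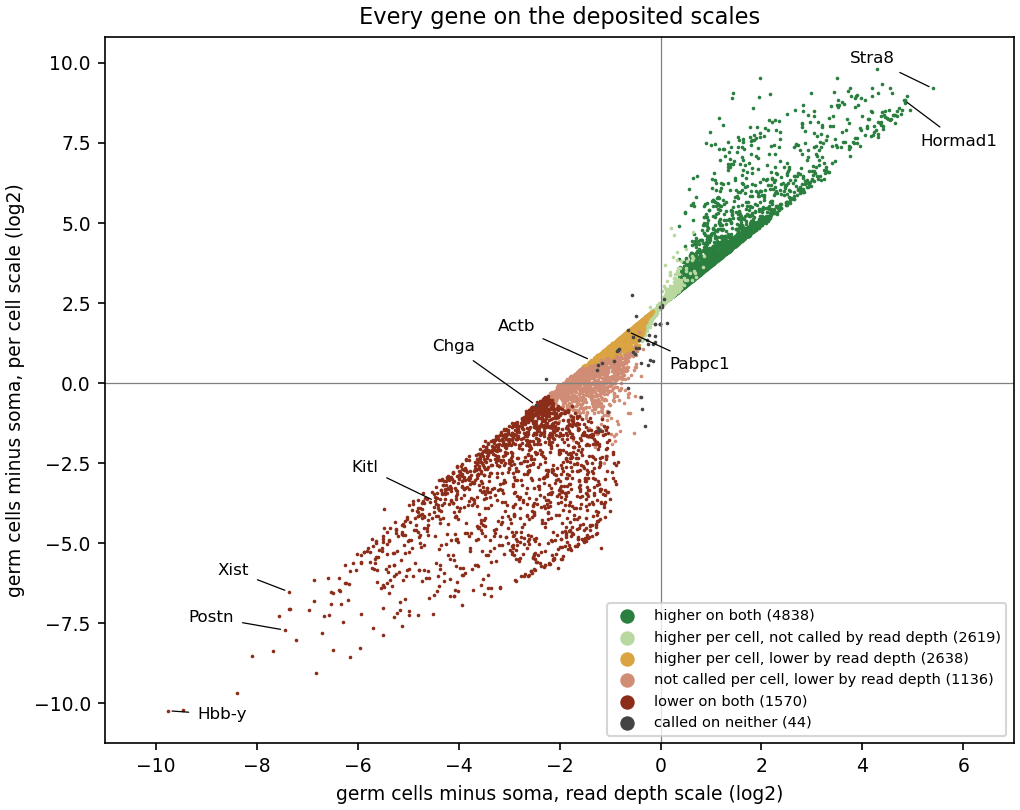
Each of the 12845 genes by its germ cell minus soma difference on the read depth scale (horizontal, log2) and the per cell scale (vertical, log2), coloured by its calls on both scales with the number of genes in each class. Genes at a difference of 0 by read depth lie near 2.4 per cell, and low genes fan out because the read depth scale compresses them.

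Germ cell genes rose together. Of 42 measured genes of germ cell identity and pluripotency, 40 were higher per cell and 37 by read depth, and the medians were 7.76 and 3.42. Over all genes 78.6% were higher per cell and 37.7% by read depth, with medians of 2.36 and -0.05. Pou5f1, the pluripotency factor whose regulatory sequence drives the reporter used for sorting, was at 238, 248 and 334 CPM in germ cells and at 8.67, 5.98 and 1.53 CPM in soma, a difference fixed in part by the gate. Sox2, its partner factor, was at 118, 147 and 169 CPM in germ cells and at 6.33, 5.37 and 0 CPM in soma, with differences of 9.21 ± 1.05 per cell and 4.55 ± 0.64 by read depth. Dppa2, a chromatin-associated pluripotency factor, had 19.5, 21.2 and 34 CPM in germ cells and at most 0.667 CPM in soma. The helicase gene Ddx4 reached 916, 797 and 827 CPM in germ cells against 24, 35.6 and 2.16 CPM in soma. Exceptions on the list were Klf4 and Sall1, which were lower by read depth at -1.13 and -1.45. Nanos3, which protects migrating germ cells, was low in both groups, at 2.51, 0.620 and 4.88 CPM in germ cells and 1.89, 1.84 and 1.40 CPM in soma.

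Among the 8 largest rises per cell were genes of the cell cycle and of egg formation beside the meiotic ones. Cdkn2a, a locus of cell cycle inhibitors, was at 58.3, 69.9 and 49.4 CPM in germ cells and at 0.111, 3.99 and 0 CPM in soma (9.82 ± 0.92 per cell, limma adjusted p = 1.66e-08). Figla, a transcription factor needed to form primordial follicles, was at 13.3, 15.3 and 10.2 CPM in germ cells and had reads in 1 soma library only, at 0.153 CPM. Ccnb3, a cyclin gene of meiotic cells on the X chromosome, was at 39.5, 52.8 and 22.9 CPM in germ cells against 0, 5.22 and 0 CPM in soma. Mageb4, also X-linked, was at 66.3, 61.4 and 45.6 CPM in germ cells and at most 2.46 CPM in soma. In Cdkn2a, Ccnb3 and Mageb4, soma replicate 2, the soma library with the most germ cell marker RNA, was the highest of the 3. It was also the highest in Figla, Rad21l and Stra8 of these 8 genes. In the others, Sox2 (6.33, 5.37 and 0 CPM in soma) and Dppa2 (0.667, 0.153 and 0 CPM), soma replicate 1 was the highest.

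Genes of retinoic acid supply and response went in both directions. Aldh1a2, an enzyme that makes retinoic acid, was at 229, 129 and 318 CPM in soma and at 3.89, 9.61 and 2.01 CPM in germ cells, lower in germ cells by -3.20 ± 0.44 per cell and by -4.18 ± 0.37 by read depth. Dhrs3, which turns retinaldehyde back to retinol, was at 66.7, 46.2 and 71.7 CPM in soma and at no more than 1.21 CPM in germ cells. On the receiving side, Stra8 rose by 9.20 ± 0.98 per cell and by 5.4 ± 0.98 by read depth, the largest rise on that scale. Rec8, a meiotic cohesin subunit that retinoic acid also induces, was at 444, 470 and 436 CPM in germ cells and at 37.6, 43.4 and 15.3 CPM in soma. Zglp1, a BMP-dependent factor of the oogenic program, was at 23.8, 27.4 and 29.4 CPM in germ cells and at most 1.02 CPM in soma, and the homeobox gene Msx1 was at 149, 146 and 153 CPM against 13.4, 13.3 and 11.8 CPM. Of the 28 measured genes on this list, 21 were higher and 6 lower per cell, and 10 were higher and 15 lower by read depth. Those counts are near the shares over all genes (78.6% higher per cell and 37.7% higher by read depth). The receptor genes Rara, Rarg and Rxra were among those higher per cell (1.7, 1.98 and 1.37) and lower by read depth (-0.55, -0.33 and -0.82).

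The machinery of meiotic prophase was higher in germ cells throughout. All 15 genes of the chromosome axis and synaptonemal complex rose on both scales, with medians of 7.92 per cell and 4.27 by read depth. The shares of all genes that rose were 78.6% per cell and 37.7% by read depth. Smc1b, a meiotic cohesin, was at 1323, 1274 and 937 CPM in germ cells and at 20.3, 89.9 and 2.54 CPM in soma. Hormad1, an axis protein that monitors pairing, was at 295, 294 and 225 CPM against 5, 19.3 and 0.254 CPM. Sycp1, the transverse filament of the synaptonemal complex, was at 364, 406 and 273 CPM against 6.56, 29.6 and 0.636 CPM. All 19 genes of meiotic breaks and recombination rose on both scales as well, with medians of 6.48 and 2.66. They included Mei1, required for break formation, at 79.5, 85.2 and 38.3 CPM against 0.889, 10.7 and 0.381 CPM, and Hfm1, a helicase of crossover formation, at 229, 242 and 141 CPM against 2.89, 28.4 and 1.40 CPM. In soma each of these 5 genes was highest in replicate 2 and lowest in replicate 3, the order of the summed germ cell markers.

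The piRNA pathway makes small RNAs that silence transposons, and its genes were higher in germ cells. All 22 measured genes rose on both scales, with medians of 7.44 per cell and 3.05 by read depth. Among all genes 78.6% rose per cell and 37.7% by read depth. Mov10l1, the helicase that starts piRNA production, was at 366, 368 and 352 CPM in germ cells and at 6.45, 21.0 and 0.636 CPM in soma. Mael, a component of the nuage granule, was at 334, 342 and 303 CPM against 7.22, 16.7 and 0.381 CPM. Piwil2, a PIWI protein, was at 371, 356 and 356 CPM against 8.56, 21.5 and 2.03 CPM. Nanos2, a regulator of male germ cells on the same list, was at 0.627, 0.310 and 0.478 CPM in germ cells and had no soma read. As a share of reads that is at least 4.17-fold higher in germ cells, with a floor of 3 reads over the soma group.

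Of 73 genes of the identity, axis, recombination and piRNA lists with a promoter entry, 20 (27.4%) carried the hexamer CACGTG, an E-box. It was searched in the 250 bases before each gene's start in the RefSeq promoter table (build GRCm38.p6), and since it reads the same on both strands it was counted once. It was present in 6.86% of the 27025 genes of that table and in 10% of the 9790 measured genes found in it. It was present in 7 of 14 axis and synaptonemal complex genes with a promoter entry, 8 of 19 piRNA genes, 7 of 30 germ cell identity genes and 2 of 16 recombination genes. By call, it was present in 10.3% of the 3769 genes higher on both scales and 6.72% of the 1072 genes lower on both. These shares are descriptions of the letters in these windows, and the lists overlap in some members. The stretches around the match nearest to the start are given for the 7 genes of these lists with a match and the largest rises by read depth, with that match in capitals and up to 24 bases on each side, in the direction of transcription. The other match of Sycp3 lies within its stretch and is in lower case.
Mov10l1: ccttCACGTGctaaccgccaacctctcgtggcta
Mael: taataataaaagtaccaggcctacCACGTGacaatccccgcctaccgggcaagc
Hormad1: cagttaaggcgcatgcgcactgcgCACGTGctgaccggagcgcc
Ddx4: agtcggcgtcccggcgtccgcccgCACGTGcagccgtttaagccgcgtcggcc
Stk31: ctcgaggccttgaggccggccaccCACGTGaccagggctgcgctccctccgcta
Sycp1: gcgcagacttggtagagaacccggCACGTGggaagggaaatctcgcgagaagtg
Sycp3: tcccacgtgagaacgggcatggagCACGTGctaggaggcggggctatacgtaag
They lie at chr15:88982744-88982777 (plus strand), chr1:166238938-166238991 (minus), chr3:95559633-95559676 (plus), chr13:112652311-112652363 (minus), chr6:49395460-49395513 (plus), chr3:102936165-102936218 (minus) and chr10:88459520-88459573 (plus). The distance from the first base of the motif to the start was 20 bases in Hormad1, 29 in Ddx4, 43 in Sycp3, 55 in Stk31, 94 in Sycp1, 223 in Mael and 246 in Mov10l1. Hormad1 and Sycp3 held 2 matches each in the 250 bases. Starts are those of the RefSeq table. By the GENCODE positions used for the other coordinates, Ddx4 spans chr13:112598333-112652475, so its stretch lies inside that span.

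Most gonadal somatic transcription factors were lower in germ cells even per cell. Of 24 gonadal somatic transcription factors, 20 were lower and 3 higher per cell, and 21 were lower and 3 higher by read depth, with medians of -3.68 and -4.02. Over all genes 12.2% were lower and 78.6% higher per cell, and 41.6% were lower and 37.7% higher by read depth. Wt1, needed to form and keep the gonadal ridge, was at 305, 224 and 352 CPM in soma and at 1.07, 8.68 and 1.53 CPM in germ cells. Nr2f2, an orphan receptor of interstitial progenitors, was at 474, 311 and 518 CPM against 1.25, 6.97 and 0.956 CPM. Tcf21, of the same lineage, was at 94.9, 76.2 and 120 CPM against 0.537, 1.08 and 0 CPM. Those that rose included Cbx2, at 3.06 per cell and 0.49 by read depth, and Six4, at 4.40 per cell and 1.45 by read depth. In bulk samples such as these, fewer cells of a type and less RNA per cell cannot be told apart.

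The supporting cell list was divided. Of 21 measured genes, 9 were higher and 11 lower per cell, and 5 were higher and 16 lower by read depth. Over all genes those shares were 78.6% and 12.2% per cell, and 37.7% and 41.6% by read depth. Kitl, the ligand that sustains germ cells, was at 185, 202 and 196 CPM in soma and at 1.30, 16.6 and 0.956 CPM in germ cells. Its receptor gene Kit had the reverse pattern, at 252, 248 and 308 CPM in germ cells and 59.7, 76.6 and 59.0 CPM in soma. Ligand and receptor RNA thus stood on opposite sides of the sort. Runx1, a supporting cell factor, was at 58.1, 61.1 and 79.7 CPM in soma and at most 3.10 CPM in germ cells. Lhx9, a LIM homeobox factor of the gonadal surface and progenitors, was at 72.2, 52.3 and 83.3 CPM against 0.492, 4.34 and 0.287 CPM. The largest rises on the list were 6.01 per cell and 2.79 by read depth. Axin2 rose on both scales (2.95 and 0.41), and Ctnnb1 was higher per cell (2.15) and lower by read depth (-0.22). Their read depth calls were lost without germ cell replicate 1, and that of Ctnnb1 also without other single libraries. For Kitl, Foxl2, Lhx9 and Wt1 the highest germ cell value was in replicate 2.

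Markers of male supporting and steroid-making cells varied in level. Sox9, the Sertoli cell factor, was at 19.2, 14.9 and 21.6 CPM in soma and at 0, 0.465 and 0 CPM in germ cells, while Amh did not exceed 2.46 CPM in any library. In soma Inha was at 28.6, 23.6 and 21.0 CPM and Gstm6 at 17.1, 29.8 and 12.8 CPM, both on the Sertoli cell list. Dmrt1, on the same list, was a germ cell transcript in these ovaries, at 137, 134 and 150 CPM against 5.33, 3.38 and 1.27 CPM in soma. The steroidogenic enzyme gene Cyp11a1 stayed at or under 2.56 CPM in all libraries. Hsd3b6, a steroid dehydrogenase gene, was higher, at 127, 79.5 and 62.4 CPM in soma and at most 0.191 CPM in germ cells. Hsd3b6 belongs to a family of near-identical genes, so reads may be shared among its members.

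**Figure D4:**
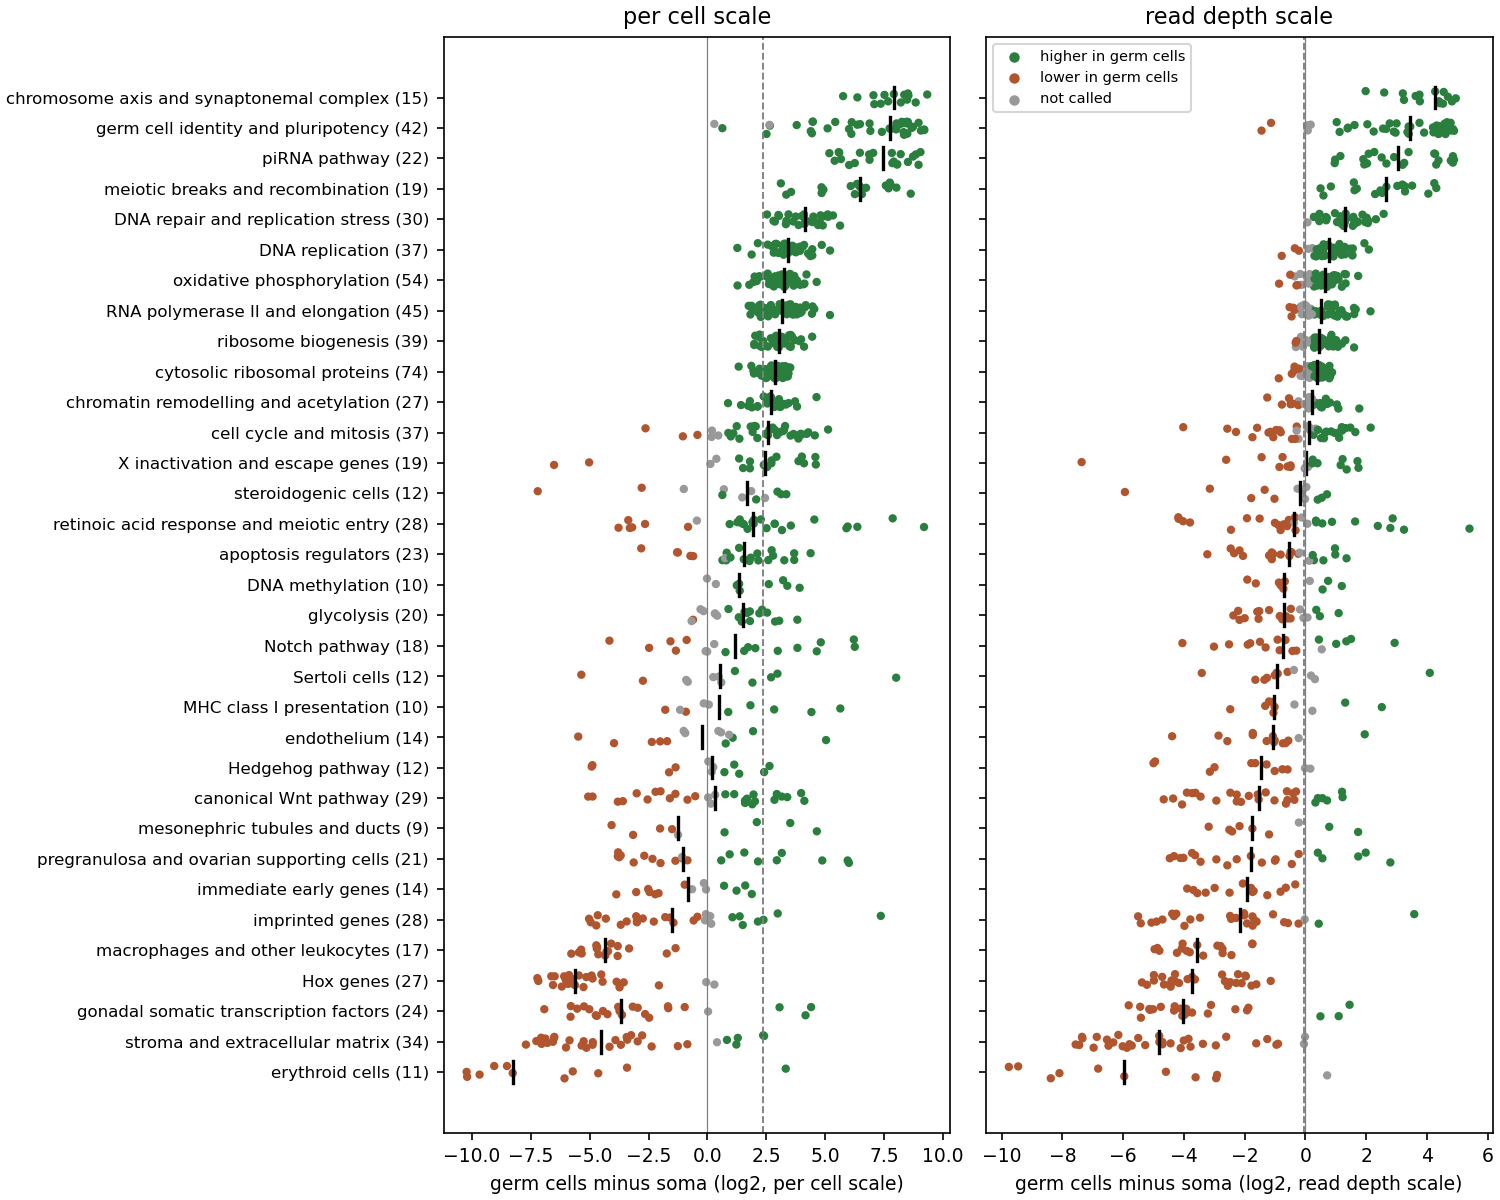
Germ cell minus soma differences for the measured members of 33 gene lists, on the per cell scale (left, log2) and the read depth scale (right, log2), with the black bar at the list median, the dashed line at the median of all genes and the colour showing the call. Lists are ordered by their read depth median; from the axis and synaptonemal complex genes to the erythroid genes that median spans 4.27 to -5.96.

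Most genes of connective tissue and blood were lower in germ cells on both scales. Of 34 matrix and stroma genes, 28 were lower per cell and 32 by read depth, with medians of -4.52 and -4.81. The shares of all genes that were lower were 12.2% per cell and 41.6% by read depth. Col1a1, a fibrillar collagen chain, was at 5684, 5507 and 4775 CPM in soma and at 5.46, 13.2 and 3.54 CPM in germ cells. Postn, a matrix protein of mesenchyme, was at 466, 654 and 412 CPM in soma and at most 0.620 CPM in germ cells. Among 11 erythroid genes, 10 were lower on both scales. The embryonic globin gene Hbb-y was at 23610, 21322 and 14131 CPM in soma and at 2.01, 4.34 and 2.87 CPM in germ cells (-10.23 ± 0.21 per cell, limma adjusted p = 4.73e-15). Globins took 2.80%, 2.49% and 1.66% of all soma reads.

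Other named falls came from several lineages. All 17 macrophage genes were lower on both scales, where 12.2% of all genes were lower per cell and 41.6% by read depth. Among them was Csf1r, the receptor for the macrophage growth factor, at 125, 159 and 102 CPM in soma and at most 2.94 CPM in germ cells. Cpa3, a mast cell protease, was at 40.6, 83.8 and 47.9 CPM in soma and had no germ cell read. As a share of reads Cpa3 was at least 721-fold lower, with a floor of 3 reads over the germ cell group. Its fitted per cell difference was -7.86. Agtr2, an angiotensin receptor of fetal mesenchyme, was at 490, 589 and 322 CPM against 0.492, 0.620 and 0 CPM. Ptn, a secreted growth factor, was at 424, 341 and 399 CPM in soma and at most 0.930 CPM in germ cells. The endothelial list was divided: of 14 measured genes, 4 were higher, 5 lower and 5 not called per cell, where 78.6% of all genes were higher. By read depth 1 was higher and 12 lower. Ets1 (0.78 per cell, -1.28 by read depth) and Eng (1.07, -1.01) had opposite signs. On that list Kdr, a receptor for vascular growth factor, was at 62.5, 66.6 and 97.1 CPM in soma and at most 1.53 CPM in germ cells. Pecam1, an adhesion molecule that fetal germ cells are known to carry, went the other way, at 72.1, 73.8 and 126 CPM in germ cells and at most 20.3 CPM in soma. The epithelial adhesion gene Epcam, listed with the mesonephric tubules, likewise rose in germ cells (4.65 ± 0.23 per cell and 1.73 ± 0.12 by read depth).

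Several nerve and adrenal medulla genes differed widely between the soma libraries. Chga, a secretory granule protein of chromaffin cells, was at 108, 242 and 1.53 CPM in soma and at 2.82, 4.34 and 4.97 CPM in germ cells. Disp2, Nfasc, Syp, Phox2a and Hand1 were likewise called on neither scale, and with Chga they were the 6 such genes of highest level. The sum of Chga, Dbh, Th, Phox2a and Disp2 was 373, 705 and 4.96 CPM in soma and 12.5, 12.9 and 13.6 CPM in germ cells. Thus the sum was high in soma replicates 1 and 2 and below the germ cell values in replicate 3. Over all 17 genes of a wider list the sum was 1003, 1838 and 83.8 CPM in soma and 66.2, 62.4 and 75.6 CPM in germ cells. On that list 3 genes were higher and 6 lower in germ cells per cell, where 78.6% of all genes were higher and 12.2% lower. Th (-2.94) and Isl1 (-1.58) were lower by read depth and not called per cell. Those lower on both scales included Dbh (-6.15 per cell, -6.87 by read depth) and Hand2. Dbh was at 138, 242 and 2.03 CPM in soma, low in replicate 3 as Chga was, and at most 0.310 CPM in germ cells. With voom on the recovered reads Dbh was not called (limma adjusted p = 0.305). Hand2, a heart and sympathetic lineage factor, was at 80.7, 109 and 35.1 CPM in soma and at most 0.155 CPM in germ cells. With soma replicate 3 as the only soma library, Chga was higher in germ cells by 3.52 per cell, a fit in which the spread between soma libraries is not measured. Without soma replicate 3 Chga was lower by -2.80 (limma adjusted p = 5.77e-10), so the libraries kept decide its direction. The other 5 genes also passed the threshold on at least 1 scale when a soma library was left out. The 17-gene list was compiled after these values were seen, and what the cells were was not tested. Soma replicate 2 also held Y-linked reads, with a sum of 10.4 CPM over 4 genes against 0.222 and 1.27 CPM in the other soma libraries.

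Wnt genes included transcripts of either sort. In the Wnt pathway, Wnt5a was at 317, 191 and 364 CPM in soma and at 3.18, 4.49 and 5.45 CPM in germ cells, and Wnt11 was at 45.7, 37.3 and 42.7 CPM against at most 0.765 CPM. The secreted inhibitor gene Sfrp1 was also a soma transcript, at 625, 556 and 785 CPM against 21.8, 23.9 and 34.1 CPM. Transcription factors of the pathway were split, with Tcf7l2 at 55.0, 41.1 and 48.2 CPM in soma and at most 0.313 CPM in germ cells. Tcf7, a related factor, was at 125, 120 and 138 CPM in germ cells against 47.8, 33.6 and 51.1 CPM in soma. Of 29 measured Wnt genes, 14 were higher and 12 lower per cell, and 6 were higher and 23 lower by read depth. The shares over all genes were 78.6% and 12.2% per cell, and 37.7% and 41.6% by read depth. The 6 that rose by read depth were Tcf7, Sp5, Lef1, Znrf3, Axin2 and Fzd3, of which Axin2, Znrf3 and Sp5 are known Wnt targets. The read depth call for Axin2 (0.41) was lost without germ cell replicate 1 (0.37, limma adjusted p = 0.0555). With soma replicate 3 as the only soma library its read depth difference was 0.22.

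Notch genes also went in both directions. Jag2, a ligand, was at 170, 187 and 167 CPM in germ cells and at 16.3, 16.6 and 7.25 CPM in soma (6.22 ± 0.23 per cell, 2.93 ± 0.20 by read depth). Notch3, a receptor, was at 237, 187 and 254 CPM in soma and at 13.6, 11.8 and 17.0 CPM in germ cells (-1.57 ± 0.23 and -3.01 ± 0.12). Heyl, a target factor, was at 21.3, 23.2 and 15.6 CPM in soma and at most 0.310 CPM in germ cells. Hes5, a target of the same family, was instead at 4.92, 9.76 and 11.1 CPM in germ cells and at most 0.767 CPM in soma. Among the 18 Notch genes, per cell 10 rose and 5 fell, and by read depth 5 rose and 12 fell. Of all genes, 78.6% rose and 12.2% fell per cell, and 37.7% rose and 41.6% fell by read depth. Notch2 was higher per cell (0.77) and lower by read depth (-1.31). Its per cell difference was 0.24 with soma replicate 3 as the only soma library. In the Hedgehog pathway the effector genes Gli1 and Gli2 were soma transcripts, with Gli2 at 91.6, 73.0 and 106 CPM in soma and at most 1.39 CPM in germ cells. Gli1 was lower in germ cells by -4.89 per cell and -4.95 by read depth. Of the 12 Hedgehog genes, 10 fell by read depth and 2 were not called, while 5 rose and 4 fell per cell.

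Hox genes, which pattern the body axis, were lower in germ cells. Of 27 Hox genes, 25 were lower per cell and 27 by read depth, with medians of -5.63 and -3.73. Hoxa5 was at 60.2, 50.9 and 64.8 CPM in soma and at most 0.0895 CPM in germ cells, and Hoxd4 was at 75.0, 44.6 and 48.7 CPM against at most 0.155 CPM. All 14 immediate early genes were lower by read depth, whereas per cell 4 were higher and 7 lower. Beside both lists, 41.6% of all genes were lower by read depth, and per cell 78.6% were higher and 12.2% lower. Myc, the growth factor-responsive regulator, was at 44.2, 52.6 and 56.5 CPM in soma and at 0.671, 0.310 and 0.956 CPM in germ cells, lower by -3.87 per cell and -3.89 by read depth. Jun was at 209, 166 and 202 CPM against 4.47, 11.2 and 8.80 CPM. Jund, at 110, 166 and 166 CPM in germ cells and 283, 228 and 259 CPM in soma, rose per cell (1.61) and fell by read depth (-0.65).

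Imprinted genes were mostly lower. Of 28 measured, 17 were lower and 7 higher per cell, and 25 were lower and 2 higher by read depth, with medians of -1.52 and -2.16. Among all genes 12.2% were lower and 78.6% higher per cell, and 41.6% were lower and 37.7% higher by read depth. H19, a long RNA made from the maternal copy in soma, was at 4105, 3224 and 4357 CPM in soma and at 62.6, 126 and 86.9 CPM in germ cells. Igf2, its neighbour and a fetal growth factor, was at 3997, 3030 and 3840 CPM against 180, 188 and 212 CPM. Mest was at 1512, 1362 and 1742 CPM against 6.85, 19.7 and 10.4 CPM. The 2 that rose by read depth were Phlda2, at 49.3, 48.6 and 93.5 CPM in germ cells against 2.67, 2.30 and 1.14 CPM, and Ube3a, at 168, 154 and 140 CPM against 99.8, 106 and 107 CPM. In class I antigen presentation, H2-K1 was higher in germ cells, at 168, 188 and 105 CPM against 11.2, 31.0 and 11.7 CPM. B2m, whose protein is needed for class I molecules at the surface, was lower, at 8.14, 8.68 and 7.27 CPM against 79.5, 87.1 and 78.8 CPM. H2-K1 has close paralogs that could share reads.

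Genes of the general growth machinery rose per cell as whole lists and by less on the read depth scale. Over all genes, 78.6% were higher per cell (median 2.36), and 37.7% were higher and 41.6% lower by read depth (median -0.05). All 74 ribosomal protein genes were higher per cell (median 2.89), and 55 were higher and 5 lower by read depth (median 0.37). Rpl18 was at 986, 1078 and 1161 CPM in germ cells and at 512, 476 and 525 CPM in soma, and Rps2 was at 1984, 2156 and 2417 CPM against 1368, 1474 and 1346 CPM. Rplp0 went the other way by read depth, at 670, 702 and 820 CPM against 1461, 1642 and 1586 CPM (1.33 per cell, -0.88 by read depth). Ribosomal protein genes have many processed copies, so their counts depend on how shared reads were assigned. All 39 ribosome biogenesis genes were higher per cell (median 3.04), and 27 were higher and 2 lower by read depth (median 0.46). Heatr1, a factor of ribosomal RNA transcription and processing, was at 329, 318 and 274 CPM against 64.0, 85.8 and 77.8 CPM.

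Transcription and chromatin genes followed the same order. The shares over all genes were 78.6% higher per cell (median 2.36), and 37.7% higher and 41.6% lower by read depth (median -0.05). All 45 RNA polymerase II and elongation genes were higher per cell (median 3.16), and 28 were higher and 5 lower by read depth (median 0.51). Polr2a, the largest subunit, was at 876, 893 and 831 CPM in germ cells and 357, 353 and 417 CPM in soma. Taf5, a subunit of the initiation factor TFIID, was at 158, 162 and 180 CPM against 21.2, 25.8 and 25.9 CPM. All 27 chromatin genes were higher per cell (median 2.70), and 13 were higher and 6 lower by read depth (median 0.21). Smarca5, an ISWI remodeller, rose most, at 768, 764 and 611 CPM against 137, 176 and 152 CPM. Chd3 fell by read depth, at 218, 211 and 215 CPM against 698, 513 and 697 CPM (0.87 per cell, -1.26 by read depth). Dnmt1, the maintenance DNA methyltransferase, was at 742, 726 and 774 CPM against 259, 262 and 278 CPM, while Dnmt3a, a de novo enzyme, was at 105, 96.2 and 102 CPM against 435, 380 and 464 CPM. Dnmt3a fell by -1.64 by read depth and had a per cell difference of 0.36 ± 0.20 (limma adjusted p = 0.0949), which passed the threshold without soma replicate 3 (0.54).

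DNA repair genes were further up than the growth lists by median. All 30 repair and replication stress genes were higher per cell (median 4.15), and 28 were higher and 2 not called by read depth (median 1.31). Atr, the kinase that signals stalled forks and unpaired chromosomes, was at 708, 721 and 537 CPM in germ cells and 58.5, 94.0 and 63.2 CPM in soma. Brca2, which loads the recombinase onto DNA, was at 459, 435 and 332 CPM against 50.4, 58.8 and 53.3 CPM. All 37 replication genes were higher per cell (median 3.44), and 32 were higher and 3 lower by read depth (median 0.76), among them the polymerase gene Pole at 513, 507 and 485 CPM against 101, 90.1 and 88.8 CPM. Among 37 cell cycle genes, per cell 31 rose and 3 fell, and by read depth 16 rose and 14 fell, near the shares over all genes (78.6% higher per cell, 37.7% higher and 41.6% lower by read depth). Ccnd2, a cyclin of the G1 phase, was at 14.2, 20.3 and 18.4 CPM in germ cells and at 582, 469 and 725 CPM in soma, and the inhibitor gene Cdkn1b was at 10.6, 13.9 and 9.18 CPM against 130, 132 and 109 CPM. Top2a, a topoisomerase of dividing cells, was at 981, 958 and 871 CPM against 306, 380 and 397 CPM. Mki67, also a gene of dividing cells, was at 365, 331 and 344 CPM against 379, 601 and 450 CPM, higher per cell (2.00) and lower by read depth (-0.35, limma adjusted p = 0.0223). That read depth call for Mki67 was lost without germ cell replicate 2 (-0.33, adjusted p = 0.063) or 3 (-0.34, adjusted p = 0.0598) and without replicate 2 of each group (-0.19, adjusted p = 0.113).

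Energy genes separated by pathway. Of all genes, 78.6% were higher per cell (median 2.36), and 37.7% were higher and 41.6% lower by read depth (median -0.05). All 54 oxidative phosphorylation genes were higher per cell (median 3.27), and 40 were higher and 4 lower by read depth (median 0.64). Cox5a, a subunit of cytochrome oxidase, was at 221, 251 and 241 CPM in germ cells and 43.5, 64.7 and 47.7 CPM in soma. Of 20 glycolysis genes, 13 were higher and 1 lower per cell (median 1.52), and 3 were higher and 14 lower by read depth (median -0.70). Ldha, lactate dehydrogenase, was at 54.5, 52.7 and 59.2 CPM against 311, 395 and 399 CPM, lower by -2.17 by read depth. Its per cell difference of -0.29 was not called, and was -0.65 with soma replicate 3 as the only soma library. Tpi1, triose phosphate isomerase, was lower on both scales (-0.61 and -2.37), and its per cell call was lost without germ cell replicate 1 (-0.49, limma adjusted p = 0.0503). Among 23 apoptosis regulators, 17 were higher and 5 lower per cell, where 78.6% of all genes were higher. By read depth 6 were higher and 15 lower, where 37.7% of all genes were higher and 41.6% lower. Bak1, an effector of mitochondrial permeabilisation, was at 1.21, 2.01 and 0.382 CPM in germ cells and 38.1, 39.0 and 40.2 CPM in soma, lower on both scales at -2.81 and -3.23.

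The X chromosome was measured directly. Xist (chrX:103460366-103483254, minus strand), a noncoding RNA, was at 2038, 1919 and 2162 CPM in soma and at 3.13, 15.0 and 1.43 CPM in germ cells, lower by -6.52 ± 0.50 per cell and -7.37 ± 0.50 by read depth. Its antisense gene Tsix was also lower (-5.03 and -2.61), and the strand setting of the read counting was not given in the sources used here, so reads of the pair may not be separable. Per library, the median of 481 X-linked genes minus that of 12310 autosomal genes was 0.098, 0.126 and -0.040 in germ cells and -0.409, -0.260 and -0.455 in soma. The difference was 0.44 ± 0.08 (SE, 3 against 3), with no overlap and p = 0.1 in the two-sided exact permutation test, the smallest possible. Without germ line list genes and X-linked multicopy families, 447 genes were left and the per cell difference was 0.35. Over all 481 X-linked genes on the read depth scale it was 0.22. With means over genes in place of medians it was 0.29 per cell. The median over genes of the germ cell minus soma difference set X less apart. It was 2.535 per cell and 0.078 by read depth on X, against 2.356 and -0.052 on autosomes. Chromosomes 12 (2.707 and 0.171) and 14 (2.549 and 0.084) stood above X on both scales. For the 447 X-linked genes it was 2.434 and 0.003. X-linked genes took 4.36%, 4.32% and 4.18% of reads in germ cells and 3.58%, 3.65% and 3.62% in soma. By read depth 46.4% of X-linked and 37.4% of autosomal genes were called higher in germ cells, and 41.6% of each were called lower. Usp9x, a deubiquitinase gene, was at 1874, 1814 and 1787 CPM against 387, 449 and 393 CPM, and Huwe1, a ubiquitin ligase gene, was at 1764, 1740 and 1771 CPM against 540, 526 and 587 CPM. X-linked genes that fell included Agtr2 and the erythroid gene Alas2.

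The 3 germ cell libraries were not alike in their meiotic genes. In replicate 3 the sum of axis and synaptonemal complex genes was 75.1% of the mean of replicates 1 and 2, and the sum of recombination genes was 60.9%. Among axis genes 14 of 15 were lowest in replicate 3, as were 15 of 19 recombination genes, where over all genes replicate 3 was lowest for 39.1% and highest for 37.0%. Rad21l, a meiotic cohesin subunit, was at 92, 84 and 34.4 CPM, and Tex15, which acts in meiotic recombination and transposon silencing, was at 984, 916 and 463 CPM. Of 42 germ cell identity and pluripotency genes, 26 were highest and 11 lowest in replicate 3, and their sum there was 101.9% of the mean of the other two. Pou5f1 was at 334 CPM against 238 and 248 CPM and Sall4 at 355 CPM against 225 and 233 CPM. In that library 64 of 74 ribosomal protein genes and 17 of 20 glycolysis genes were also at their highest, while piRNA genes were close, at 94.7%. The X minus autosome value was lowest in the same library. These are values of 1 library with no test, chosen after they were seen, and embryo staging within the day is not given in the labels.

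**Figure D5:**
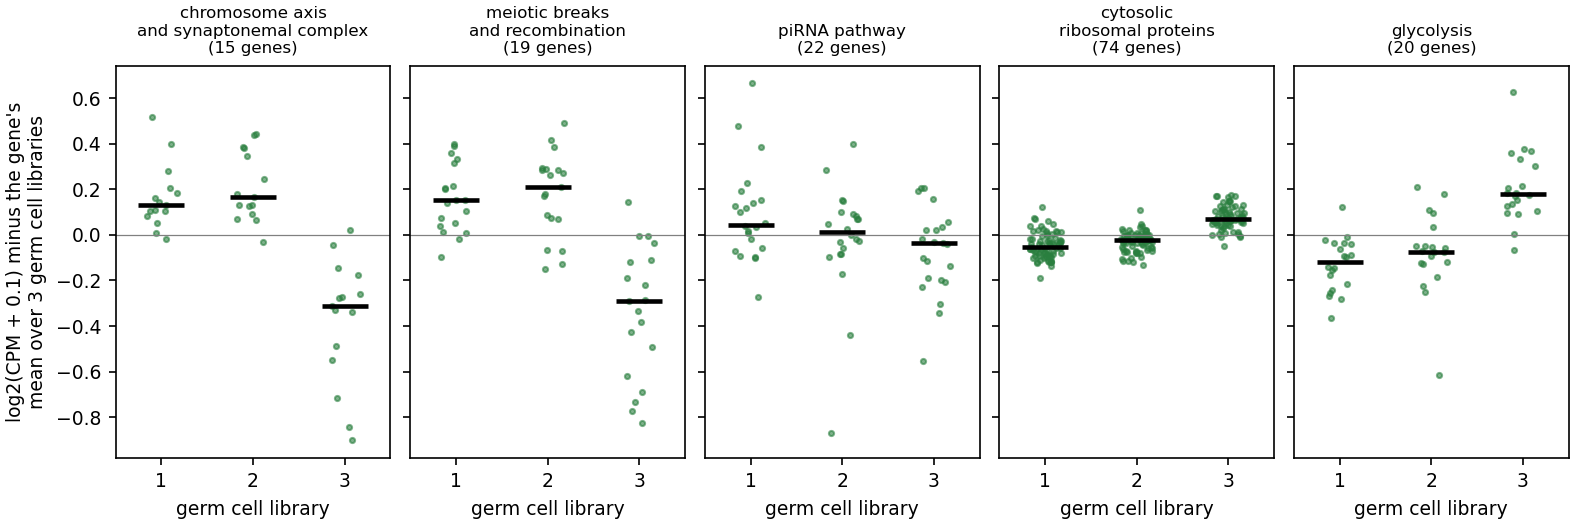
For 5 gene lists, each gene's log2(CPM + 0.1) in germ cell replicates 1, 2 and 3 minus its mean over the 3, with the black bar at the list median. Axis and recombination genes sit low in replicate 3, ribosomal protein and glycolysis genes sit high there, and piRNA genes show little shift.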

How the data were processed

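Poly(A) libraries had been prepared with a directional kit, per the labels' protocols. The build mm10 and HTSeq 0.6.1p1, TopHat2 2.0.9, Trim Galore 0.4.0, limma 3.28.14, edgeR 3.14.0 and DESeq2 1.12.3 are named per the submitters' processing notes, without settings. The authors deposited 2 tables of log2 values for 12845 genes. In the cell number table every value equals log2 of whole reads plus 0.5 over a library-specific effective size, within 0.001 reads; how the sizes were set was not given in the sources used here. The read depth table's transform is not given either. Its differences are compressed, by 0.345, 0.644 and 0.764 per unit of read-based log2 difference for genes with mean reads under 100, from 100 to 1000 and from 1000 up.

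Groups were fitted on each table's 6 female columns with limma 3.58.1 (lmFit, eBayes with an intensity trend) in R 4.3.3 and adjusted over all genes; the other 6 columns were not used. Replicates of a group differed by more than counting noise (a chi-square over its degrees of freedom of 5.43 to 23.6). Positions are from GENCODE vM21, with 12409 genes matched by current symbol, 387 by an older symbol and 49 not placed. Depth was 202 to 705 reads for the median gene.

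Gene lists and comparisons were chosen with earlier results of these data known. Genes named were the 8 largest rises and falls per scale with groups apart, up to 6 members of each list by level and change, label markers, the largest falls outside soma lists, and the highest genes of 2 classes. List members named beyond that rule, and the sympathoadrenal list, were chosen after their values were seen. Alternatives tried were other normalizations, filters, thresholds, limma options, voom on the recovered reads, a replicate block and leaving out libraries. Some genes that this rule takes are not reported here.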

Additional observations from a re-analysis of the deposited data

How the results depend on the processing

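The per cell shift of 2.2 ranged from 2.13 to 2.31 and the X chromosome difference of 0.436 from 0.396 to 0.493 when each library was left out in turn. Over the same refits the genes called numbered 9909 to 10197 higher and 1449 to 1632 lower per cell, and 4459 to 4789 higher and 5016 to 5322 lower by read depth. Counts moved by over 1.5 times with the scaling, the filter on low genes or the threshold. Median centring gave 5642 higher and 4644 lower per cell, and quantile normalization gave 5568 and 4460. Without the lowest 25% of genes by level, 528 were lower per cell and 3485 lower by read depth, since low genes leave the test. A log2 difference of at least 1 left 1669 higher and 2995 lower by read depth, 1669 higher on both scales, 82 with opposite signs and 7867 higher per cell only. Without the second library of each group, the sympathoadrenal list's per cell median of -0.69 turned to 0.60; with soma replicate 3 as the only soma library it was 2.48, and 0.16 by read depth. In that last setting the lone sample is assumed to vary like the rest, so only its effect sizes are given. Both settings were added after seeing the data. So was a filter of 10 reads in each library of a group, which gave 10070 genes higher and 1556 lower per cell.

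Same-numbered libraries did not deviate together (correlations of -0.033, 0.027 and 0.029 per cell, -0.072, 0.059 and 0.071 by read depth), so the numbers were not taken to pair the samples. A fit with the replicate block called 10115 higher and 1567 lower per cell and 4785 and 5289 by read depth, with a paired shift of 2.2 and X difference of 0.436 (p = 0.25 each, exact sign-flip permutation test, the smallest 3 pairs allow). Not every library correlated best with its own number. Of 194 named genes on 2 scales, 388 values in all, 382 kept their call under the block and 384 with voom. Depth limits genes at or near 0 reads, whose fitted differences depend on the 0.5-read offset.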
